A study of Mus musculus with 24 samples.

Results

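The genes described here are 40 genes known for their expression in endothelial cells, the cells that line blood vessels, and they were chosen by symbol from an earlier reading of the same data. Of these, 36 had a row among the 14074 genes of the deposited PFC table, and Cyyr1, Myct1, Sox7 and She were not analysed here. The table holds bulk poly(A)+ RNA-seq of the prefrontal cortex (PFC) of 24 adult male C57BL/6 mice, 1 library per mouse, in 6 groups of 4. Control animals were not stressed, and PS and AS animals went through 30 days of chronic social stress (labelled SDS30). PS (passive coping strategy, dep1 in the labels) and AS (active coping strategy, dep2) were separated by the authors through clustering of behaviour during non-aggressive contact, so the phenotype was observed and not assigned. Animals of each phenotype received saline or dexamethasone (DEX, 2 mg/kg), a synthetic agonist of the glucocorticoid receptor (GR), on the day after the last stress session, and tissue was taken 6 h later. The comparisons ask whether endothelial transcripts differed with coping phenotype after saline, whether they responded to DEX, and whether the DEX response differed between phenotypes.

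Endothelial cells of brain vessels are joined by adherens and tight junctions and form the blood-brain barrier together with pericytes, astrocyte endfeet and the basement membrane. Their identity depends on transcription factors of the ETS family (Erg, Fli1, Ets1) and the SOXF group (Sox17, Sox18), which act on genes such as Cdh5 (VE-cadherin, the adhesion molecule of the adherens junction) and Pecam1 (CD31). Glucocorticoids are known to tighten the barrier in cultured brain endothelium, and GR is expressed in these cells. The 36 genes fall into 16 junction and surface proteins, 3 secreted proteins, 7 transcription factors, 4 receptors, the endothelial nitric oxide synthase Nos3 with its trafficking partner Nostrin, and 4 other signalling proteins.

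Promoter sequence is shown for 4 genes whose DEX response is described below in every library of at least 1 phenotype. The regions upstream of genes that rose in control animals (Nostrin, Calcrl) and fell in AS animals (Calcrl, Adgrl4, Itm2a) can thus be read side by side. The sequences are the 250 bases before the RefSeq start site on GRCm38.p6, written 5′ to 3′ on the strand of the gene. They lie at chr2:69135550-69135799 on the plus strand for Nostrin, chr2:84425267-84425516 on the minus strand for Calcrl, chr3:151437632-151437881 on the plus strand for Adgrl4 and chrX:107403361-107403610 on the minus strand for Itm2a. Capitals mark AGAACA (1 arm of the GR element), AGGAAG (an ETS-type core) and AACAAT (a SOX-type core), each on either strand.
Nostrin: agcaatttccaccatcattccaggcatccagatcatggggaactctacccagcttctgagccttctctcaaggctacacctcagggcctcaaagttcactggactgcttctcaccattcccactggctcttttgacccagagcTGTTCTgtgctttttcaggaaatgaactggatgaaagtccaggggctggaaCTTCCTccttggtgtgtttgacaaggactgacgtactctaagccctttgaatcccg
Calcrl: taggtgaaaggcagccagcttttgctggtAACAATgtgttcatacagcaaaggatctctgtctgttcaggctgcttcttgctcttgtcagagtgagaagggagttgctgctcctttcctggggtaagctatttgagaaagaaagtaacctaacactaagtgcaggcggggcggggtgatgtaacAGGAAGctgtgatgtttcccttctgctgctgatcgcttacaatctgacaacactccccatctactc
Adgrl4: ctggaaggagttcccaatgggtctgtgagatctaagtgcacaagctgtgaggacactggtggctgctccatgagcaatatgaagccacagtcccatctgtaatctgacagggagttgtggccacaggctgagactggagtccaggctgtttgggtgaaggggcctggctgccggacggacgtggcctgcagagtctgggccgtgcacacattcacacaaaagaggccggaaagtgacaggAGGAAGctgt
Itm2a: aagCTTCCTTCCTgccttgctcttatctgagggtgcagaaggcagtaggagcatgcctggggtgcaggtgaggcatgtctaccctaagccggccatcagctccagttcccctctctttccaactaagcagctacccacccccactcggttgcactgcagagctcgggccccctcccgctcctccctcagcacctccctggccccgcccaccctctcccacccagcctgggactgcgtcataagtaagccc
A window was given for 15 of the 36 genes (21 windows in all) among 32851 windows of the genome. The full palindrome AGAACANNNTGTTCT, searched on both strands, was in 0 of the 21 windows and in 0.00913% of all, and the looser form GNACANNNTGTNC was in 0 of 21 and in 0.387% of all. The single arm AGAACA, which is part of the full palindrome, was found upstream of Adgrf5, Egfl7, Nostrin and Tm4sf1 (4 of 21 windows, 16.1% of all). AGGAAG was found in 14 of 21 windows against 29.5% of all, its shorter core GGAAG in 18 of 21 against 64.1%, and its longer form CAGGAAGT, which contains both, in 1 (Egfl7) against 2.69%. AACAAT was in 4 of 21 windows (Calcrl, Emcn, Erg and Ushbp1) against 9.42% of all. Each match is a description of the letters in these windows and not of a bound site.

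The recovered depth was 21121869 to 59439645 reads on genes per library (median 24420129.5). With saline it was 21121869 to 24753489 in control, 21493398 to 59439645 in PS and 23481722 to 40268349 in AS animals. With DEX it was 21252256 to 24086770, 22253648 to 32055506 and 24908942 to 52422858, so that each DEX-treated AS library was deeper than each DEX-treated control library. None of the 36 genes had under 10 reads in any library, the lowest being 11 reads. Fkbp5, a GR target used as a check of the treatment labels, rose 4.79-fold with DEX in control animals, 4.01-fold in PS and 3.77-fold in AS, with no overlap between groups. DEX-treated AS mouse 60 stood apart from the other 3 mice of its group in the mean level of the endothelial genes, so that counts of called genes for this group are also given without it. Some rows share sequence with neighbours. Exons of Ramp2 (Vps25), Rasip1 (Izumo1), Egfl7 (Gm20532 and Mir126a) and Arap3 (Mir6981) overlap those of another gene on the same strand, Ecscr, Cd34, Nos3, Sox17, Foxq1 and Palmd overlap a gene on the opposite strand (the strand setting of the counting was not given in the sources used here), and Ly6a and Ly6c1 have close paralogs, so the counts of all these genes are uncertain.

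As RPKM (reads per kilobase of exon, scaled to the library total), levels in saline-treated control animals ran from 30.4 ± 1.78 (SD, n = 4) for Epas1, which encodes the hypoxia-inducible factor HIF-2α and is also expressed by other brain cells, to 0.683 ± 0.164 for Clec14a, a surface lectin. Itm2a, a membrane protein of brain endothelium, was second (22.1 ± 2.98). The next in order, Ly6c1 (13.2 ± 2.90) and Cd34 (13.1 ± 1.12), did not differ beyond their spread. Cdh5 and Pecam1, the defining markers, were at 4.50 ± 0.597 and 3.30 ± 0.649 on the same scale and were read in every library. The lowest spread within groups was that of Cd34 and the highest that of Vwf (pooled SD of 0.13 and 0.57 on the log2 scale).

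Taken as the mean log2 level of the 36 genes per library, each gene centred on the 24 libraries, saline-treated groups overlapped. The values were -0.06, 0.18, 0.30 and -0.10 in saline-treated control animals (mice 106, 107, 109 and 117), -0.18, 0.04, 0.17 and 0.16 in PS (mice 2, 28, 62 and 68) and 0.34, -0.18, 0.48 and 0.10 in AS (mice 8, 14, 40 and 44). With DEX they were 0.60, 0.28, 0.06 and 0.35 in control animals (mice 101, 108, 112 and 122), -0.15, -0.70, -0.27 and 0.24 in PS (mice 6, 34, 52 and 56) and -0.52, -0.55, -0.07 and -0.53 in AS (mice 38, 42, 60 and 72). All DEX-treated AS animals except mouse 60 lay below every saline-treated animal, all 4 DEX-treated control animals lay above all 4 DEX-treated AS animals, and of the DEX-treated PS animals mouse 34 was the lowest of all 24 libraries while mouse 56 lay inside the control range. In bulk tissue, fewer endothelial cells and less RNA of these genes per cell cannot be told apart.

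**Figure D1:**
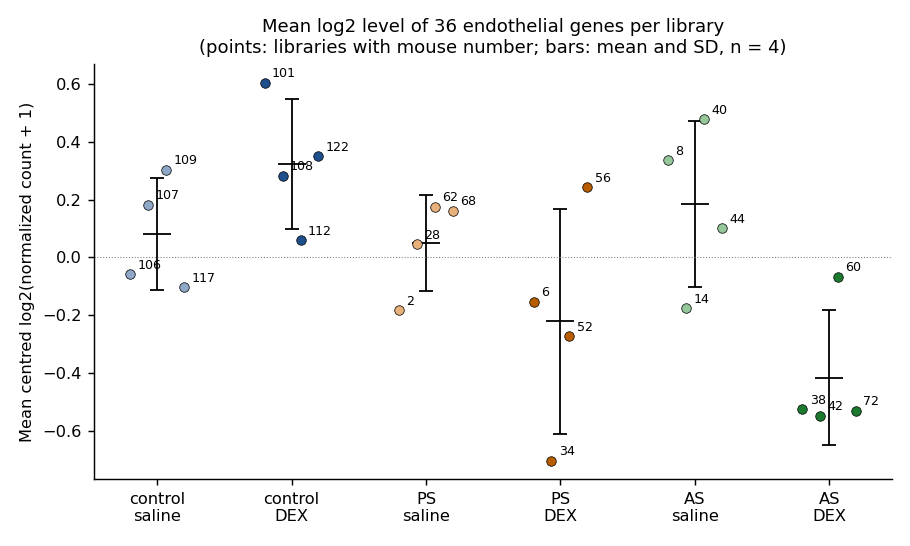
Mean centred log2(normalized count + 1) of the 36 endothelial genes (y axis) in each of the 24 libraries, by group (x axis), with the mouse number beside each point and the mean and SD of 4 libraries as bars. With saline, group means were 0.08 (control), 0.05 (PS) and 0.18 (AS), and with DEX 0.32, -0.22 and -0.42.

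After saline, no endothelial gene passed the threshold in any comparison of phenotypes. Tests were made with limma over all 14074 genes, with Benjamini-Hochberg adjustment and an adjusted p under 0.1. Among all genes, 1.51% passed between PS and control, 0.156% between AS and control and 0.0% between AS and PS (0 genes). Between AS and PS, 1 of the 36 and 671 of all genes had an unadjusted p under 0.05. The median log2 fold change of the 36 genes was -0.03 (PS and control), 0.05 (AS and control) and 0.13 (AS and PS). Of the 36, 15, 29 and 33 were above 0 in the same order. In the count models, edgeR and DESeq2 also called 0 of them in each of these comparisons.
The gene with the largest difference in each comparison did not pass. Between PS and control animals it was that of Ly6a, a GPI-anchored surface protein (Sca-1), with 355, 358, 467 and 393 normalized counts in PS and 277, 309, 391 and 268 in control animals. The groups overlapped (0.35 on the log2 scale, SE 0.22, limma adjusted p = 0.525). Between AS and control animals it was that of Mmrn2, an extracellular matrix protein of endothelium that binds CD93, with 209, 113, 232 and 151 in AS and 105, 128, 150 and 107 in control animals. These groups overlapped as well (0.48, SE 0.25, limma adjusted p = 0.474). Ramp2, the subunit that makes the calcitonin receptor-like receptor a receptor for adrenomedullin, had the largest difference between AS (518, 420, 577 and 579) and PS (447, 352, 402 and 351). It was 0.43 (SE 0.13, limma adjusted p = 0.934), and the groups overlapped.

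In control animals, DEX raised 4 endothelial genes and lowered 1. Ramp2, Calcrl, Nostrin and Cd34 rose and Ecscr fell, while 31 did not pass the threshold. Over all genes 6.49% were called, 4.03% higher and 2.46% lower. Of the 36 genes, 5 were above and 1 below the saline group without overlap, against 5.81% and 4.32% of all genes. The median log2 fold change of the 36 genes was 0.19, with 30 above 0, against -0.01 over all genes.
Ramp2 and Calcrl encode the accessory and the ligand-binding subunit of the same adrenomedullin receptor. Ramp2 (chr11:101246028-101259546, mm10, plus strand) had 876, 644, 595 and 727 normalized counts with DEX and 443, 471, 440 and 366 with saline. All 4 DEX-treated animals were above all 4 with saline, a rise of 0.71 on the log2 scale (SE 0.13, 1.64-fold, limma adjusted p = 0.00118). Calcrl (chr2:84330626-84425411, minus strand) had 174, 157, 129 and 182 with DEX and 89.1, 139, 126 and 119 with saline. These groups overlapped through DEX-treated mouse 112 and saline-treated mouse 107, and the rise was 0.44 (SE 0.15, limma adjusted p = 0.0902). Both other receptors of the list, the adhesion G protein-coupled receptors Adgrl4 and Adgrf5, had log2 fold changes of 0.56 each that did not pass (limma adjusted p = 0.101 and 0.206).
Nostrin (chr2:69135800-69189330, plus strand), which binds Nos3 and moves it away from the membrane, had 206, 164, 137 and 188 with DEX and 78.3, 103, 127 and 108 with saline. The groups did not overlap and the rise was 0.74 (SE 0.19, 1.67-fold, limma adjusted p = 0.0267). Nos3 itself had a log2 fold change of -0.01. Cd34, a sialomucin, rose by 0.26 (SE 0.09, limma adjusted p = 0.0915).
Ecscr, a surface protein with a part in endothelial migration, went the other way, with 64.0, 43.4, 27.4 and 33.7 normalized counts with DEX and 79.6, 66.4, 80.3 and 75.1 with saline. Every DEX-treated animal was below every one with saline (-0.89, SE 0.22, limma adjusted p = 0.0161). Of the transcription factors and secreted proteins, 0 of 7 and 0 of 3 passed. Cdh5 had 769, 556, 441 and 645 with DEX and 486, 605, 570 and 450 with saline. Pecam1 had 781, 659, 497 and 566 with DEX and 518, 562, 739 and 474 with saline. The groups overlapped for both of these markers, and neither passed. Only Ramp2 and Ecscr passed in each other setting that tested them and without any 1 of the 24 libraries. The 5 calls became 2 without saline-treated mouse 106 or DEX-treated mouse 101, 3 without saline-treated mouse 117, and 8 without DEX-treated mouse 112. Through the shared estimate of the spread they were 3 without saline-treated PS mouse 28, 62 or 68, 8 without AS mouse 60 and 10 without PS mouse 34.

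In PS animals, DEX lowered 5 endothelial genes (Icam2, Mmrn2, Ecscr, Itm2a and Arap3) and raised none that passed, while 31 did not pass. Over all genes 5.36% were called, 2.74% higher and 2.62% lower. Of the 36 genes, 1 was above and 4 were below the saline group without overlap, against 5.54% and 4.57% of all genes. The median of the 36 genes was -0.28, with 29 below 0.
Icam2, an adhesion molecule for leukocytes, had 34.3, 17.2, 13.4 and 38.1 normalized counts with DEX and 44.6, 49.1, 69.1 and 37.8 with saline. DEX-treated mice 34 and 52 were low, mouse 56 lay just inside the saline range, and the difference was -1.03 (SE 0.33, limma adjusted p = 0.0915). Mmrn2 had 85.7, 56.9, 64.3 and 97.9 with DEX and 99.4, 153, 188 and 144 with saline, without overlap (-0.93, SE 0.25, limma adjusted p = 0.0323).
Ecscr fell here too, with 34.3, 50.8, 29.1 and 64.2 with DEX and 70.1, 79.5, 83.1 and 66.2 with saline (-0.79, SE 0.22, limma adjusted p = 0.0391). Itm2a had 861, 590, 744 and 1046 with DEX and 1116, 1036, 1293 and 1117 with saline. The groups touched through DEX-treated mouse 56 (-0.52, SE 0.15, limma adjusted p = 0.064). Arap3, a regulator of the small GTPases ARF6 and RhoA, fell by 0.48 on the log2 scale. Cdh5 had 369, 205, 364 and 560 with DEX and 455, 493, 588 and 570 with saline. Pecam1 had 403, 241, 416 and 631 with DEX and 395, 533, 565 and 568 with saline. The groups overlapped for both of these markers, and neither passed. Ramp2 and Nostrin, which rose in control animals, had log2 fold changes of 0.29 and 0.51 in PS that did not pass (limma adjusted p = 0.302 and 0.19). The 5 calls became 0 without saline-treated mouse 62, 1 without DEX-treated mouse 34 or 52, 2 without saline-treated mouse 28, 3 without saline-treated mouse 2 or 68, and 8 without DEX-treated mouse 56. They were also 3 without saline-treated control mouse 107, DEX-treated control mouse 108 or AS mouse 72.

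In AS animals, DEX lowered 23 of the 36 endothelial genes and raised 1 (Cd34), and 12 did not pass. Over all genes 8.77% were called, 4.95% lower and 3.82% higher. The median log2 fold change of the 36 genes was -0.63, against 0.00 over all genes, and 35 were below 0. Without mouse 60 the count of calls was 25.
The secreted and surface proteins had the lowest values. Mmrn2 (chr14:34375465-34404287, plus strand) had 64.3, 39.5, 80.1 and 56.4 normalized counts with DEX and 209, 113, 232 and 151 with saline. Every DEX-treated animal was below every saline-treated one, a 2.88-fold difference (-1.53 on the log2 scale, SE 0.25, limma adjusted p = 0.00034). Cd93 (chr2:148436640-148443563, minus strand), a lectin-like receptor of Mmrn2, had 89.8, 94.3, 113 and 44.9 with DEX and 249, 139, 280 and 178 with saline. Here too the groups were apart (-1.32, SE 0.29, 2.50-fold, limma adjusted p = 0.00598). Both genes of this ligand and receptor pair thus fell.
Icam2 had 25.6, 11.4, 36.3 and 21.9 with DEX and 63.8, 42.5, 59.2 and 52.5 with saline, without overlap (-1.25, SE 0.33, limma adjusted p = 0.0225). Vwf (chr6:125546774-125686679, plus strand), the multimeric protein that binds platelets and is stored in endothelial granules, had 319, 282, 379 and 254 with DEX and 710, 416, 1407 and 531 with saline. Saline-treated mouse 40 was far above the others, and the lowest saline value was still above the highest with DEX (-1.17, SE 0.36, limma adjusted p = 0.0539).

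**Figure D2:**
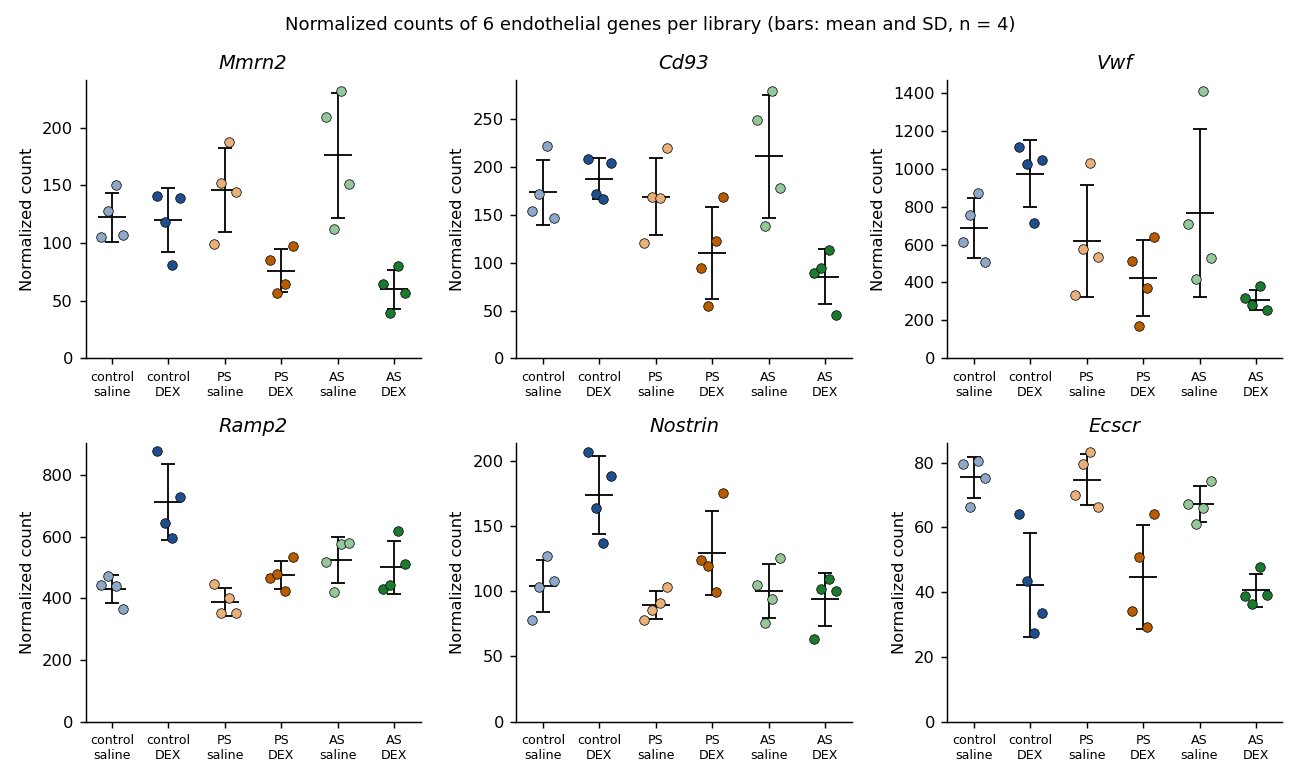
Normalized counts (y axis, from 0) of Mmrn2, Cd93, Vwf, Ramp2, Nostrin and Ecscr in each library, by group (x axis), with the mean and SD of 4 libraries as bars. For Mmrn2 the 4 DEX-treated AS animals sit between 39.5 and 80.1, below the saline-treated AS range of 113 to 232, and for Ramp2 the DEX-treated control animals (595 to 876) sit above the saline-treated ones (366 to 471).

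Of the 16 junction and surface proteins, 11 fell and 1 rose. Cdh5 had 318, 278, 387 and 404 with DEX and 683, 440, 705 and 506 with saline, without overlap (-0.74, SE 0.22, limma adjusted p = 0.0463). Pecam1 had 287, 304, 493 and 385 with DEX and 698, 399, 731 and 554 with saline. It overlapped through DEX-treated mouse 60 and saline-treated mouse 14, and its fall was the less certain (-0.69, SE 0.23, limma adjusted p = 0.0865), being lost with quantile normalization, with library size as a covariate, with edgeR on thinned reads and in a fit of the compared groups alone.
The other falls in this group were those of Podxl, a sialomucin that lines the lumen (-1.02), Ptprb, the phosphatase VE-PTP that acts on VE-cadherin and TIE2 (-0.86), Ly6a (-0.80), Emcn (-0.72), Ecscr (-0.72), Tm4sf1 (-0.71) and Itm2a (-0.65). Itm2a had 628, 654, 933 and 605 with DEX and 1075, 882, 1206 and 1214 with saline, with mouse 60 alone inside the saline range (limma adjusted p = 0.0123). Cd34 rose by 0.25, a call lost in 4 of the 9 other settings. Of the surface proteins, Esam, Clec14a, Ly6c1 and Cgnl1 did not pass (-0.46 to -0.31).
Among transcription factors, Sox18 (-0.76), Sox17 (-0.74), Foxq1 (-0.65) and Ets1 (-0.47) fell, with calls lost in 4 (Sox18), 0 (Sox17), 3 (Foxq1) and 2 (Ets1) of the 9 other settings, and Erg, Fli1 and Epas1 had values of -0.29, -0.18 and -0.14 that did not pass. Of the receptors, Adgrl4 (-0.61) and Calcrl (-0.52) fell, whereas Ramp2 (-0.07) and Adgrf5 (-0.46) did not pass. Nos3 fell by 0.66 on the log2 scale and Nostrin had a log2 fold change of -0.10. Of the signalling proteins, Ushbp1 (-0.92), Rasip1, which is needed for vascular lumen formation (-0.57), and Arap3 (-0.56) fell, and Palmd (-0.10) did not pass.
Groups did not overlap for 12 of the 36 genes, each lower with DEX, while 5.02% of all genes were lower and 4.0% higher without overlap. The calls for Mmrn2, Cd93, Podxl, Itm2a and Rasip1 held in each of the 9 other settings and without any 1 library. The 24 calls became 6 without DEX-treated mouse 42, 11 without 72 and 13 without 38, and 8 or 7 without saline-treated mouse 8 or 40.

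**Figure D3:**
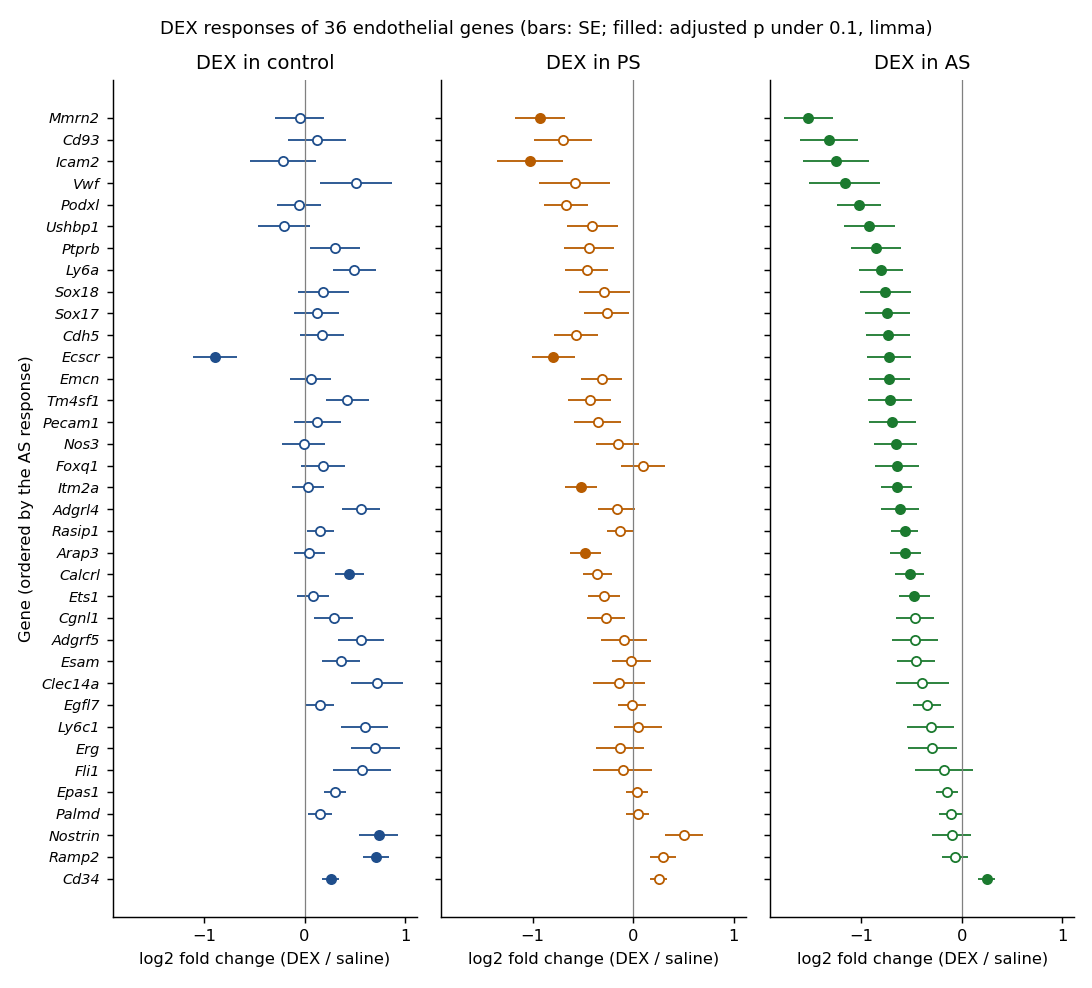
Log2 fold change of DEX against saline (x axis) for the 36 endothelial genes (y axis, ordered by the AS response) in control, PS and AS animals, with SE bars and filled points for adjusted p under 0.1. Of the 36 values, 30 in control animals lie above 0, 7 in PS and 1 (Cd34) in AS.

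Between phenotypes after DEX, endothelial genes were lower in AS than in control animals. Of the 36, 14 were lower and 0 higher, against 0.867% of all genes called (0.107% higher and 0.76% lower). The median of the 36 genes was -0.77 and 34 were below 0. Groups did not overlap for 23 of them, each lower in AS, while 4.02% of all genes were lower without overlap.
Vwf had 319, 282, 379 and 254 normalized counts in AS and 1115, 1023, 713 and 1047 in control animals with DEX. The difference was 3.14-fold (-1.65 on the log2 scale, SE 0.36, limma adjusted p = 0.0436). Cd93 had 89.8, 94.3, 113 and 44.9 in AS and 209, 172, 167 and 204 in control animals (-1.20, SE 0.29, limma adjusted p = 0.0702). For both genes the groups were apart. The other 12 were Ptprb (-1.10), Adgrf5 (-1.08), Mmrn2 (60.1 ± 16.9 against 120 ± 27.9 normalized counts, SD, n = 4), Adgrl4 (-0.99), Foxq1 (-0.94), Nostrin (-0.90), Ly6a (-0.88), Rasip1 (-0.68), Itm2a (-0.65), Calcrl (-0.57), Ramp2 (-0.51) and Epas1 (-0.50). All 4 receptors were among them, but Ramp2 and Calcrl were each lost in 4 of the 9 other settings, as was Ly6a, and passed in 10 and 11 of the 24 fits that left out 1 library. The defining markers Cdh5 and Pecam1 did not pass in this comparison.
The count changed with the treatment of depth and with single libraries. With log2 of the library size as a covariate it was 0, and after thinning all libraries to the smallest total it was 9 with edgeR. Each DEX-treated AS library was deeper than each DEX-treated control library, so the covariate fit cannot tell depth and phenotype apart in this comparison. It was also 0 without DEX-treated control mouse 101 or 122 or DEX-treated AS mouse 38 or 42, 2 and 4 without control mouse 108 and AS mouse 72, 25 without AS mouse 60 and 29 without control mouse 112. Leaving out PS mouse 34 or 56 with DEX or AS mouse 44 with saline, which enter through the estimate of the spread, gave 28, 25 and 24.
Between PS and control animals after DEX, 0 of the 36 passed (0.199% of all genes passed), with a smallest limma adjusted p of 0.105. An unadjusted p under 0.05 was found for 29, a looser threshold than that of the 0.199%, and 35 were below 0 (median -0.57). The share of all genes at the looser threshold is not given here. edgeR called 1 and DESeq2 5, and without DEX-treated PS mouse 56 limma called 15 and without DEX-treated control mouse 112 it called 6. It called 3 without AS mouse 44 or 60 and 1 without control mouse 117 or AS mouse 14 or 72. Of the 36 genes, 7 were below the control group without overlap, against 3.01% of all genes. Vwf had the largest difference, with 511, 173, 370 and 642 in PS, all below the control animals given above (-1.33, SE 0.36, limma adjusted p = 0.144). Between AS and PS after DEX, 0 of the 36 and 0.0% of all genes passed (580 of all genes at an unadjusted p under 0.05), 3 of the 36 had an unadjusted p under 0.05, and edgeR and DESeq2 called 0. Foxq1, a forkhead factor of brain endothelium, had the largest difference, with 89.8, 75.8, 111 and 58.7 in AS and 154, 87.9, 104 and 168 in PS (-0.60, SE 0.22, limma adjusted p = 1).

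The DEX responses of AS and control animals differed for 5 endothelial genes, each with a lower response in AS. These were Mmrn2, Ly6a, Adgrl4, Calcrl and Ramp2, against 0.348% of all genes called (0.185% higher and 0.163% lower). The median interaction of the 36 genes was -0.84, and Cdh5 and Pecam1 did not pass. An unadjusted p under 0.05, a looser threshold than that of the shares just given, was found for 31. The share of all genes at that looser threshold is not given here.
Calcrl had 174, 157, 129 and 182 normalized counts in DEX-treated control animals and 90.5, 102, 116 and 122 in AS, where saline-treated animals had 156, 134, 192 and 138. It was higher with DEX in control and lower in AS animals, and the interaction was -0.96 (SE 0.21, limma adjusted p = 0.0744). Adgrl4, an adhesion receptor of angiogenic endothelium, had 798, 537, 558 and 697 with DEX and 391, 464, 539 and 359 with saline in control animals. In AS animals it had 251, 333, 443 and 288 with DEX and 523, 391, 592 and 478 with saline, an interaction of -1.17 (SE 0.27, limma adjusted p = 0.0844).
Mmrn2 had 141, 118, 81.0 and 139 in DEX-treated control animals, near its saline values, beside the fall in AS given above (interaction of -1.48, SE 0.35, limma adjusted p = 0.0954). Ly6a had 554, 375, 374 and 459 with DEX in control animals and 186, 236, 386 and 182 with DEX against 384, 312, 503 and 479 with saline in AS. Only mouse 60 of the DEX-treated AS animals was inside the saline range of its phenotype (interaction of -1.30, SE 0.31, limma adjusted p = 0.0954). After saline, Mmrn2, Ly6a and Calcrl were higher in AS than in control animals by 0.48, 0.42 and 0.39 on the log2 scale, without passing. These saline differences enter the interactions. Ramp2 had 430, 443, 617 and 511 with DEX in AS, overlapping the saline values of that phenotype, so its interaction of -0.78 (SE 0.18, limma adjusted p = 0.0954) came with a rise in control animals and no called change in AS.
These 5 calls were close to the threshold. They became 0 when only genes averaging 100 normalized counts or more were tested and with library size as a covariate, 1 with quantile normalization, 2 with edgeR on thinned reads and 17 with DESeq2. Leaving out 1 library gave 0 (control mice 106, 117, 101, 108 and 122, AS mice 8, 40, 38 and 42) to 18 (control mouse 112), with 14 without AS mouse 60, 16 without AS mouse 44, 10 without AS mouse 14, 12 without PS mouse 34 and 8 without PS mouse 56. It was 1 without control mouse 107 or PS mouse 28, 62 or 6, and 2 without control mouse 109 or PS mouse 68 or 52. Control animals are shared by the comparisons of both stressed phenotypes.
For PS, 0 of the 36 interactions and 0.0% of all genes passed (1404 of all genes at an unadjusted p under 0.05), and 13 of the 36 had an unadjusted p under 0.05 (median -0.54). Vwf was the largest (-1.09, SE 0.50, limma adjusted p = 0.469). When the AS response was set against the PS response, 0 of the 36 and 0.0% of all genes passed as well (344 of all genes at an unadjusted p under 0.05), and 3 of the 36 had an unadjusted p under 0.05. Foxq1 was the largest (-0.75, SE 0.31, limma adjusted p = 1). edgeR and DESeq2 called 0 of the 36 in either comparison.

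In several groups, 1 library was the extreme one for most endothelial genes. Of the 36 genes, DEX-treated control mouse 101 was the highest of its group in 31 and mouse 112 the lowest in 29. DEX-treated PS mouse 34 was the lowest in 29 and mouse 56 the highest in 34. Saline-treated AS mouse 14 was the lowest in 29 and mouse 40 the highest in 25, and DEX-treated AS mouse 60 was the highest in 28. Saline-treated control mouse 109 was the highest in 27 and mouse 117 the lowest in 21, and saline-treated PS mouse 2 was the lowest in 24. For the lowest DEX-treated AS library and the highest saline-treated PS library the counts were more even. The lowest DEX-treated AS library was mouse 72 in 15 genes, 42 in 10 and 38 in 9, and the highest saline-treated PS library was mouse 68 in 18 and 62 in 15.
In the response to DEX, Ecscr fell in all 3 phenotypes (-0.89, -0.79 and -0.72), and Cd34 had values of 0.26, 0.25 and 0.25, of which that in PS did not pass (limma adjusted p = 0.116).

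**Figure D4:**
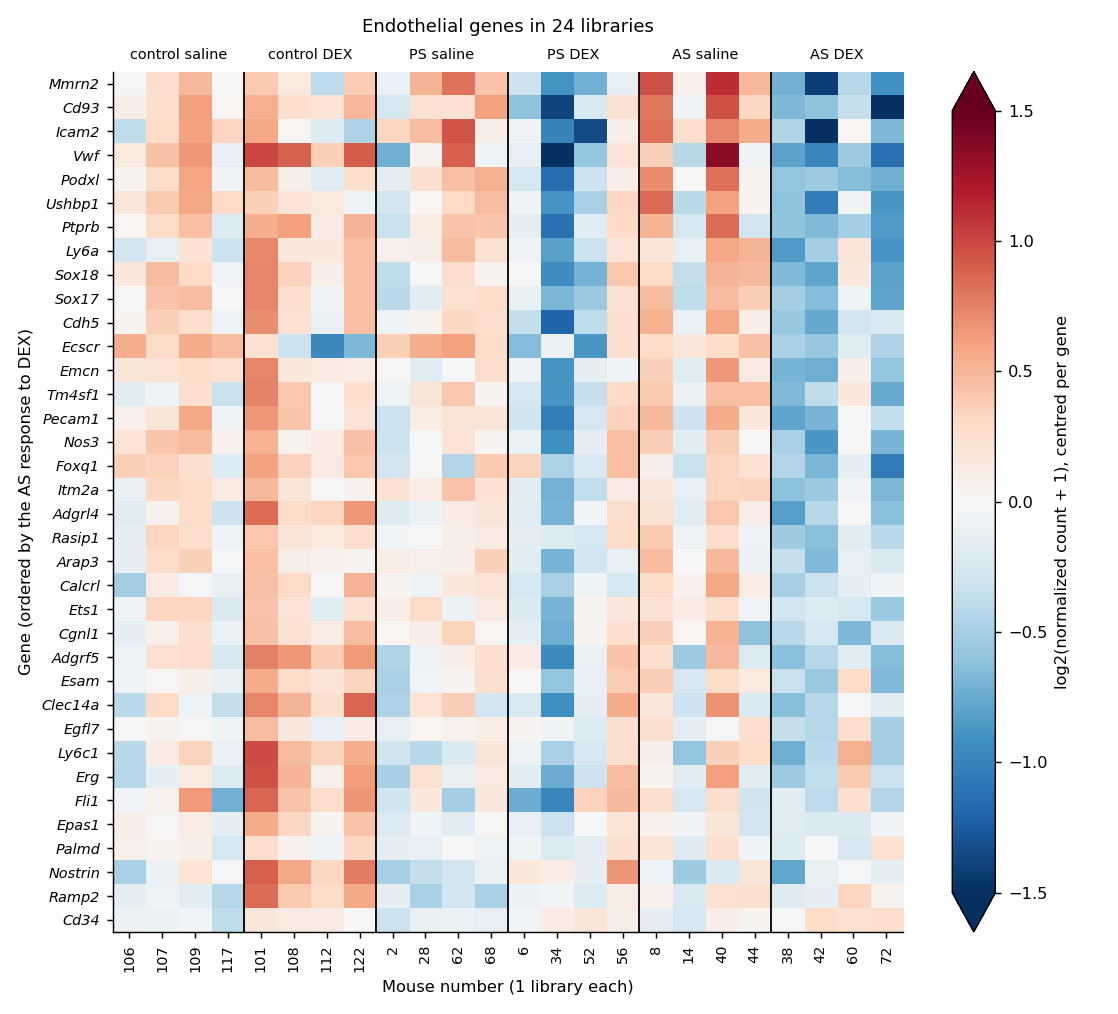
Log2(normalized count + 1) of the 36 endothelial genes (y axis, ordered by the AS response to DEX) in 24 libraries (x axis, mouse numbers, by group), centred on the mean of each gene, with red above and blue below it. Columns of DEX-treated PS mouse 34 and of DEX-treated AS mice 38, 42 and 72 are blue for most genes, and the column of DEX-treated control mouse 101 is red.

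Other endothelial genes were followed through a list of 48, of which 41 were measured. DEX raised 7 and lowered 3 of the 41 in control animals, raised 3 and lowered 8 in PS, and raised 2 and lowered 14 in AS, with medians of 0.09, -0.22 and -0.50. Some responded the same way in each phenotype. Lrg1, a secreted glycoprotein of venous endothelium, had 87.3 ± 18.5 and 302 ± 55.5 normalized counts (SD, n = 4) with saline and DEX in control animals, and its log2 fold changes were 1.79, 1.51 and 1.33 in control, PS and AS. Mfsd2a, the lipid transporter that limits transcytosis at the barrier, rose by 1.21, 1.28 and 1.26. Slc38a5, a glutamine transporter, fell in all 3 (-0.95, -1.31 and -1.59).
Slc2a1, the glucose transporter of the barrier, did not. It had 2698 ± 308 and 4770 ± 569 normalized counts with saline and DEX in control animals, 2288 ± 345 and 3124 ± 594 in PS and 2639 ± 384 and 2583 ± 281 in AS. It rose by 0.82 in control and by 0.44 in PS animals and had a log2 fold change of -0.02 in AS, with an AS interaction of -0.85 (SE 0.18, limma adjusted p = 0.0744). Of 10 angiogenic receptors, 6 fell in AS, with the lowest values for the angiopoietin receptor Tek (-1.25), its partner Tie1 (-1.10) and the VEGF receptor Flt1 (-0.85), whereas 2 fell in control animals (Nrp1 and S1pr1) and 2 in PS (Tek and S1pr1). Of 8 arterial genes, 0 passed in control animals, 3 fell in PS and 4 in AS, with the lowest values for Gkn3 (-1.46 in PS and -1.85 in AS).

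Some genes of cells that accompany vessels fell in AS animals as well, and the mean levels of the pericyte, leptomeningeal and blood lists were also lower with DEX in PS, with overlap except for blood. Of 12 pericyte and smooth muscle genes, 5 fell with DEX in AS (Acta2 -1.66, Tagln -1.23, Notch3 -0.99, Rgs5 -0.72 and Vtn -0.70), and 0 passed in control or PS animals. The mean log2 level of these 12 genes was higher with DEX in control animals (0.04 with saline and 0.31 with DEX), with overlap. In PS the sums of these genes were 6424 to 8035 with saline and 4416 to 8099 with DEX (mean log2 levels of 0.04 and -0.22). In AS the sums were 6241 to 10452 with saline and 4809 to 5746 with DEX (0.27 and -0.44). The 8 leptomeningeal fibroblast genes summed to 2661 to 6078 with saline and 1557 to 5110 with DEX in PS (mean log2 levels of 0.24 and -0.41), with 0 called. They summed to 3682 to 5862 and 2492 to 4545 in AS (0.38 and -0.26), and 1 of them fell (Slc22a6, -0.99), whereas 1 rose in control animals (Slc6a13, 0.88). Their mean log2 levels in control animals were -0.16 with saline and 0.21 with DEX, with overlap. The 5 haemoglobin and erythroid genes summed to 1155 to 3140 and 1168 to 3599 in AS, with 0 called, and to 1575 to 2687 and 1625 to 4386 in control animals. In PS they summed to 2001 to 2746 with saline and 1123 to 1719 with DEX, without overlap and with 0 called (mean log2 levels of 0.18 and -0.59). The median log2 fold change of 8 oligodendrocyte genes with DEX was -0.31 (control), 0.14 (PS) and 0.42 (AS). Of those reported here, Mobp rose with DEX in AS (0.96), and Ermn and Mag fell in control animals (-0.86 and -0.51). Of 8 microglial genes, 4 fell in AS, 4 fell in PS, and 2 fell and 1 rose in control animals. Astrocyte and neuronal lists had at most 3 called genes per comparison, in both directions for astrocytes. No gene of these lists was at 0 in any library. The part of these other cells in the endothelial results was not tested. Depth was examined only with library size as a covariate and with thinned reads.

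**Figure D5:**
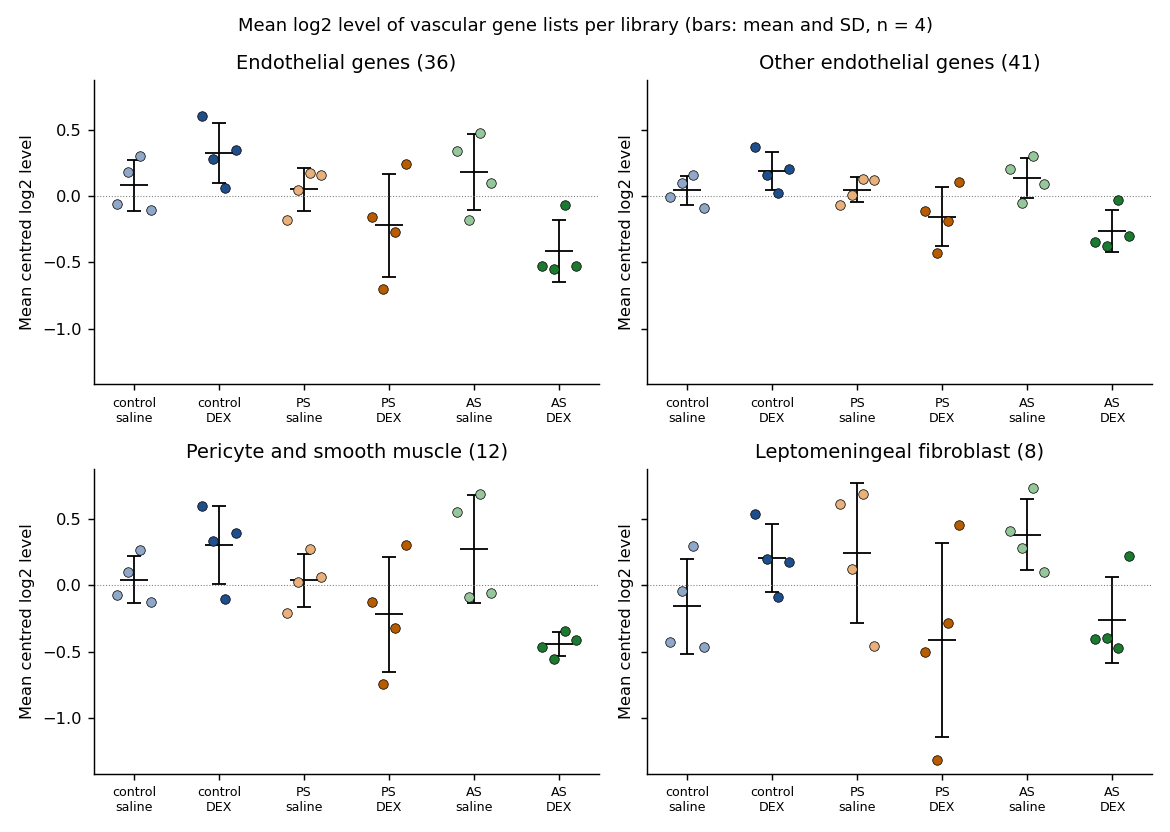
Mean centred log2 level (y axis) of the 36 endothelial genes, 41 other endothelial genes, 12 pericyte and smooth muscle genes and 8 leptomeningeal fibroblast genes in each library, by group (x axis), with the mean and SD of 4 libraries as bars. In each list the DEX-treated AS mean lies below the saline-treated AS mean (-0.42 and 0.18, -0.26 and 0.14, -0.44 and 0.27, -0.26 and 0.38). The DEX-treated control mean lies above the saline-treated control mean in each list (0.32 and 0.08, 0.19 and 0.04, 0.31 and 0.04, 0.21 and -0.16).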

How the data were processed

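PFC RNA-seq libraries of 24 mice were analysed. The authors trimmed reads with fastp 0.20.1, aligned them to mm10 (GRCm38) with HISAT2 2.2.1, counted them over vM22 genes with featureCounts (Subread 2.0) and normalized them with DESeq2 1.36.0. The deposited unit is a signal, in which the authors scaled the reads of each gene by 1 size factor per library. All values were whole multiples of 1 read within 0.01 (100%), so reads were recovered for depth and count models; a count test is given only as an alternative. Every row was used, as rows under 10 reads in a library (913 genes) remain in the table. The deposited tables of fold changes and p-values, which hold the authors' own comparisons, were not used beyond gene coordinates.

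Groups came from the library names in the labels, and the series design text names dep1 and dep2 as passive and active coping. Mice are separate animals. The 36 replicate pairs differed by more than sampling noise (chi-square per gene 5.74 to 81.8). limma 3.58.1 (R 4.3.3; lmFit, contrasts.fit, eBayes with a trend) was fitted to log2(normalized count + 1) in all 24 libraries with 1 mean per group, over 14074 genes and 12 comparisons, with Benjamini-Hochberg adjustment and an adjusted p under 0.1. Fold changes are on this scale and understate the change of low genes. Alternatives were a pseudocount of 8, a mean of at least 100, at least 10 reads per library, quantile normalization, only the compared groups, library size as a covariate, edgeR 4.0.16, DESeq2 1.42.0, edgeR on thinned reads, and each library left out. The steps were tested on simulated data. Intervals and SEs cover the spread between these libraries. The genes and lists were chosen with earlier results of these data known. Values in every library are given for Cdh5 and Pecam1. For each DEX response and the AS interaction, all compared libraries are given for up to 4 called genes with the largest change. Between phenotypes after saline or DEX this holds for up to 2 called genes, or the largest where none passed. In the other interactions only the largest estimate is given. Other lists have up to 3 named genes, except where all called are few. Ramp2 among the interactions, and Itm2a in AS, were added after their values were seen. Exon lengths came from GENCODE vM21 and promoters from RefSeq. A result for 1 oligodendrocyte gene is not reported here.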

Additional observations from a re-analysis of the deposited data

Results flagged for a closer look

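The mean log2 level of the 36 endothelial genes in DEX-treated AS mouse 60 was -0.0675, while the other 3 mice of its group lay between -0.548 and -0.525, and its gap to them was large for a group of 4. Itm2a was flagged in the same library for the same reason, with 933 normalized counts in mouse 60 and 605 to 654 in the others. Of 90 groups examined (14 genes and the mean level, in 6 groups each), these 2 were flagged (2.22%), and chance flags about 1 in 20. The haemoglobin and erythroid genes of mouse 60 had a mean centred log2 level of 0.80, against -0.78 to -0.22 in the others of its group. Its oligodendrocyte level was also the highest of the group (0.51, against -0.06 to 0.32), and its leptomeningeal level the lowest (-0.47). Over all genes, the chi-square per gene was 47.3 to 81.8 between mouse 60 and the others, and 20.5 to 23.4 among the others. The part of these differences in the result was not tested.

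The DEX response differed between AS and control animals by the test of the interaction for Mmrn2 (-1.48), Ly6a (-1.30), Adgrl4 (-1.17), Calcrl (-0.96) and Ramp2 (-0.78), each past an adjusted p of 0.1 (limma, 0.0744 to 0.0954).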

How the results depend on the processing

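No call among the endothelial genes changed direction under any setting. Of 53 pairs of a gene and a comparison that passed, 20 passed in every other setting that tested the gene and 7 also without any 1 library (Ramp2 and Ecscr in control animals, Mmrn2, Cd93, Podxl, Itm2a and Rasip1 in AS). The limits lie in 4 animals per group, in depth that was higher in AS, and in adjusted p-values close to 0.1. Counts of called genes moved by over 1.5 times as follows. DEX in control, main count 5, gave 8 with quantile normalization, 9 with only the groups compared, 3 with edgeR and 9 with DESeq2, and 2 to 10 without 1 library. DEX in PS, 5, gave 3 with edgeR on thinned reads and 0 to 8 without 1 library. DEX in AS, 24, stayed within 1.5 times in the other settings (17 to 25) and moved only without 1 library (6 to 25). PS against control with DEX, 0, gave 1 with quantile normalization, 1 with edgeR and 5 with DESeq2, and 0 to 15 without 1 library. AS against control with DEX, 14, gave 0 with library size as a covariate, 29 with DESeq2 and 9 with edgeR on thinned reads, and 0 to 29 without 1 library. The AS interaction, 5, gave 0 with a mean of at least 100, 1 with quantile normalization, 0 with library size as a covariate, 17 with DESeq2 and 2 with edgeR on thinned reads, and 0 to 18 without 1 library. The other 6 comparisons gave 0 in every setting. The cause of these moves was not tested, and the counts over all genes in the same settings are not given here. Over the 36 genes, the median in AS stayed between -0.63 and -0.56 in other settings and between -0.78 and -0.54 without 1 library. No paired analysis was possible because mouse numbers do not recur between groups.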
